A study of Homo sapiens with 12 samples.

Results

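The 10 genes described here are myeloid genes (CSF1R, CSF1, CD68, CD14, LYZ and FCGR3A) and T lineage genes (GATA3, LAT, CD2 and LCK) measured in L428, an established cell line of Hodgkin lymphoma. They were taken from 31303 gene symbols on Illumina HT-12 arrays because they had been seen to be detected or to differ between groups, so they were selected on the detection calls and group differences of these same arrays. Their values are therefore a description, given with standard errors, and the calls listed further below are not a test of them. Each of 4 groups had 3 arrays: L428 cells resistant to ixazomib, untreated control cells, and cells given ixazomib at 25 nM or 71.25 nM for 24 h. Ixazomib inhibits the proteasome, and the column headers call the drug MLN2238. No dose is given for the resistant cells, nor whether they were harvested with drug present, nor whether they are 1 clone. One sample titled as 71.25 nM carries a description that says 25 nM, and the title was followed. Biological triplicates are stated for the 25 nM treatment alone, so a p-value here covers no more than the scatter among the 3 arrays of a group, part or all of which may be technical. Array numbers follow the order of the groups, so anything that goes with array number cannot be told apart from group.

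Hodgkin and Reed-Sternberg cells descend from B cells but have lost most of the B cell programme and show genes of other blood lineages. CSF1R is the receptor of macrophage colony-stimulating factor, which CSF1 encodes, and it sustains monocytes and macrophages. In normal myeloid cells the transcription factor PU.1, encoded by SPI1, drives CSF1R from a promoter close to its coding exons. In Hodgkin cell lines CSF1R transcripts that start in a long terminal repeat further upstream have been described. GATA3 is the master factor of type 2 helper T cells and is also known from Hodgkin cells.

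The label of expression holds for some of the 10 genes only. The genes had 23 probes, of which 6 were detected on every one of 12 arrays (detection p under 0.05 against negative control beads): the 3 probes of CD68 and 1 each of GATA3, CSF1R and LYZ. Another 8 probes were detected on no array, and 13 passed the filter of detection on at least 3 of 12 arrays, in any group. Each gene kept at least 1 probe, and its brightest kept probe stands for it below unless another is named. CSF1, CD14, FCGR3A, LAT, CD2 and LCK lay at the detection limit, where a signal of about 103.5 to 117.5 was the lowest called detected, depending on the array. A lone detection there says little, because a probe was called detected at 105.6 on a resistant array and not detected at 112.9 on a 25 nM array.

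Markers of other cell types were partly detected. T cell markers CD3D, CD3E and ZAP70 and the myeloid markers TYROBP, FCER1G, ITGAM and SPI1 were detected on no array, with signals of at most 109.4. Of 21 T cell markers 12 were detected on no array, and 1 on all 12. Of 31 monocyte and macrophage markers 18 were detected on no array and 4 on all 12, AIF1, LILRB1 and NCF4 among them. The epithelial marker EPCAM was detected on 4 arrays, with signals up to 129.2. The B cell marker PAX5 was detected on no array either, while TNFRSF8, which encodes CD30, and the chemokine gene CCL17 were detected on all 12. The summed signal of the 21 T cell markers lay at 2047 to 2100 on resistant arrays, 2132 to 2209 on control arrays, 2092 to 2254 at 25 nM and 2109 to 2217 at 71.25 nM. For the 31 monocyte and macrophage markers the sums were 5912 to 6782, 7462 to 8658, 6642 to 7643 and 5838 to 6740 in the same order of groups, without background subtraction. The 16 stromal, epithelial and erythroid markers summed to 1568 to 1608 on resistant arrays, 1618 to 1711 on control arrays, 1559 to 1710 at 25 nM and 1608 to 1678 at 71.25 nM. Of the 21 T cell markers 1 passed the detection filter, and of these 16 markers 2. The sums of those lists therefore hold mainly background and are not read as transcript levels. The lowest signal called detected was 103.5 to 109.4 on resistant arrays and 109.1 to 115.2 on control arrays. The part of the markers of other cell types in the members' values was not tested. The arrays had mean signals of 293.2 to 400.5 and detected 36.2% to 39.8% of their 47227 probes.

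Promoter sequences are shown for CD68, the member with the largest differences, and for the annotated starts of CSF1R, whose signal differed in resistant cells. Each is the 250 bases before a start in RefSeq (GRCh38.p14), 5′ to 3′ on the gene's strand, and 8 of the 10 genes are in that table. Capitals mark matches on either strand to GAGGAA (the core bound by PU.1), TGANTCA (AP-1), CACGTG (the E-box of MYC and TFEB), TGACNNNGC (the core of the antioxidant element) or the NF-kB consensus.
CD68, chr17:7579388-7579637, plus strand: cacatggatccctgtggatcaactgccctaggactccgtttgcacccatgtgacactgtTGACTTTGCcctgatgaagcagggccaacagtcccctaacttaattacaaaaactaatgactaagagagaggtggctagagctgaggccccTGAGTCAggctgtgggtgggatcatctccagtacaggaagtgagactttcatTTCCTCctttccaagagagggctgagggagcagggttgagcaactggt
CSF1R, nearer the coding exons, chr5:150086555-150086804, minus strand: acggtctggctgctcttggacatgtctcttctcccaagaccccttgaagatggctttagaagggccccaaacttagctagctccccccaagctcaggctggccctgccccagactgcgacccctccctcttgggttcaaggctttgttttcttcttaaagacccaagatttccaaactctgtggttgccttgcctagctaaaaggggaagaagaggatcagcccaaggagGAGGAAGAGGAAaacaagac
CSF1R, farther upstream, chr5:150113366-150113615, minus strand: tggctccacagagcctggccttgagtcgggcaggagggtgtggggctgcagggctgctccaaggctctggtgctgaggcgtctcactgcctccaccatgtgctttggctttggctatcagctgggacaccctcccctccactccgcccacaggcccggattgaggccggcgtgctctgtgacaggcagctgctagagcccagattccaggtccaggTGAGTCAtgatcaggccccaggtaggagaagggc
The CD68 window held 1 match each to the antioxidant core, to AP-1 and, on the opposite strand, to the PU.1 core. The CSF1R window nearer the coding exons held 2 adjoining PU.1 cores, 9 to 20 bases before the start, and the farther window held 1 AP-1 match. Over 35116 promoter windows of the same length, 23.6% held GAGGAA, 6.6% TGANTCA, 6.3% CACGTG, 10.9% TGACNNNGC and 1.7% the NF-kB consensus. A match describes letters only, and the CSF1R probe reads transcripts from any start that holds its target. Both CSF1R windows belong to annotated starts, and neither was compared with the long terminal repeat described in Hodgkin cell lines.

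CD68, a lysosomal membrane glycoprotein of macrophages, was the brightest member measured and was higher in resistant and in drug-treated cells than in control cells. On its brightest probe (ILMN_1714861) the deposited signal was 3502.2, 3781.7 and 3941.8 on the resistant arrays, 1139.7, 1080.9 and 852.8 on the control arrays, 2768.5, 3170.1 and 2346.1 at 25 nM, and 2522.6, 2534.5 and 2521.9 at 71.25 nM. All resistant, 25 nM and 71.25 nM arrays lay above all control arrays, and the resistant arrays lay above both doses. In normalized log2 signal the difference from control was 2.36 ± 0.09 SE (5.14-fold) in resistant cells, 1.58 ± 0.09 SE (2.99-fold) at 25 nM and 1.55 ± 0.09 SE (2.92-fold) at 71.25 nM, with n = 3 per group. In a culture, more cells with a transcript and more of it per cell cannot be told apart.

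The acute doses overlapped on this probe. The difference of 71.25 nM from 25 nM was -0.03 ± 0.09 SE. Resistant cells were 0.82 ± 0.09 SE above 71.25 nM, again without overlap. Resistant cells had the highest level, both doses followed within their spread of each other, and control cells had the lowest.

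The other CD68 probes had the same order of resistant over drug-treated over control. ILMN_2359907 read 1083.3, 1200.4 and 1295.4 on resistant arrays, 576.6, 520.1 and 474.1 on control arrays, 1032.6, 1045.2 and 843.2 at 25 nM, and 858.7, 833.1 and 719.5 at 71.25 nM. It differed from control by 1.73 ± 0.10 SE in resistant cells, 1.04 ± 0.10 SE at 25 nM and 0.81 ± 0.10 SE at 71.25 nM, less than the brightest probe in each case. ILMN_2267914, the dimmest, read 392.1 to 465.2 on resistant arrays, 146.1 to 183.0 on control arrays, 286.8 to 403.9 at 25 nM and 296.5 to 319.3 at 71.25 nM. Its differences were 2.39 ± 0.14 SE, 1.57 ± 0.14 SE and 1.46 ± 0.14 SE in resistant, 25 nM and 71.25 nM cells. Over the 12 arrays the log2 values of the 3 probes correlated pairwise with r of 0.96 to 0.99, which the arrays they share contribute to.

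**Figure D1:**
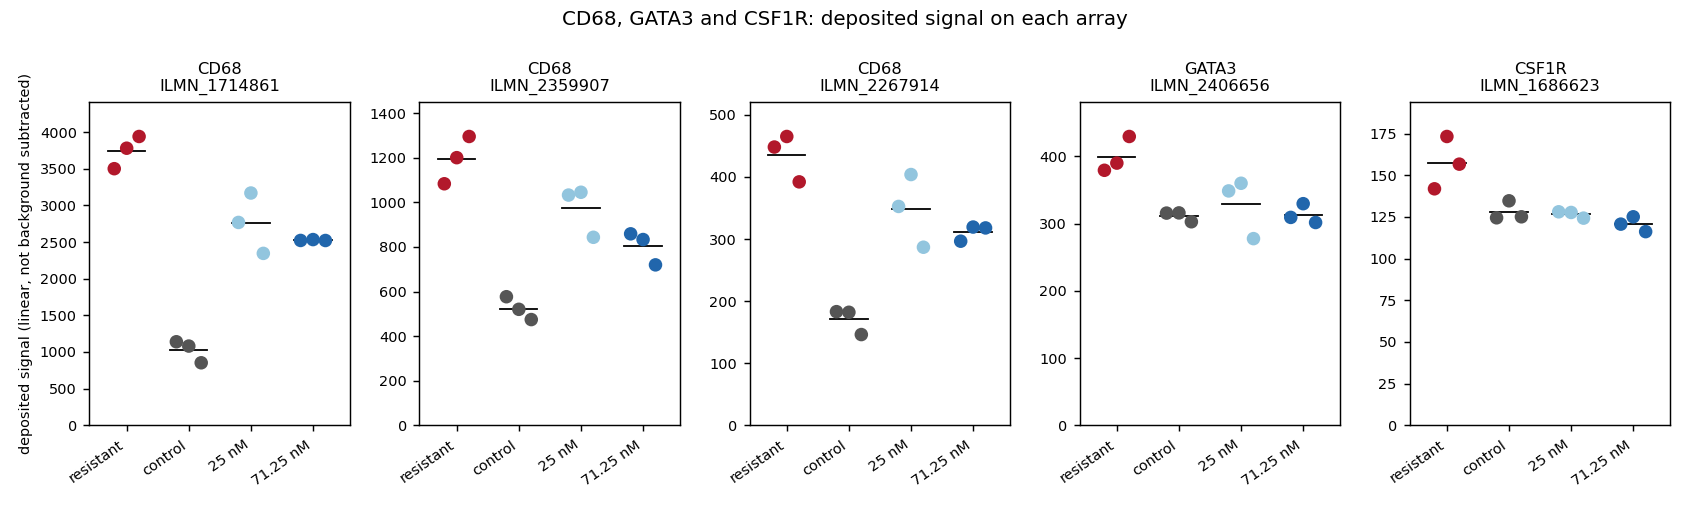
Deposited signal (linear scale, not background subtracted) on each array for the 3 CD68 probes and for the single probes of GATA3 and CSF1R, by group, with the mean of 3 arrays as a black line. The CD68 arrays of resistant cells (3502.2 to 3941.8 on ILMN_1714861) and of both doses lie above the control arrays (852.8 to 1139.7), while GATA3 and CSF1R stand higher on resistant arrays alone.

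GATA3 was read by 1 probe, detected on all arrays, and stood higher in resistant cells. Its deposited signal was 379.4, 390.1 and 429.7 on resistant arrays, 315.7, 316.0 and 302.8 on control arrays, 348.7, 360.1 and 277.7 at 25 nM, and 309.3, 329.7 and 301.7 at 71.25 nM. The resistant arrays lay above all others, and the other 3 groups overlapped. The log2 difference from control was 0.85 ± 0.10 SE (1.80-fold) in resistant cells, 0.09 ± 0.10 SE at 25 nM and 0.09 ± 0.10 SE at 71.25 nM (n = 3 per group). Resistant cells were 0.76 ± 0.10 SE above 71.25 nM. Under housekeeping scaling the GATA3 differences from control were 0.20 at 25 nM and 0.27 at 71.25 nM.

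CSF1R, also read by 1 probe, was detected on every array but close to the limit. Its deposited signal was 141.9, 173.3 and 156.7 on resistant arrays, 124.5, 134.7 and 125.1 on control arrays, 128.1, 127.7 and 124.3 at 25 nM, and 120.7, 125.1 and 116.2 at 71.25 nM. The resistant arrays did not overlap any other group, and control, 25 nM and 71.25 nM overlapped. The log2 difference from control was 0.98 ± 0.16 SE (1.98-fold) in resistant cells, -0.08 ± 0.16 SE at 25 nM and -0.21 ± 0.16 SE at 71.25 nM (n = 3 per group). Resistant cells stood 1.20 ± 0.16 SE above 71.25 nM. The size of this difference depends on the background correction, since without it the resistant cells were 0.42 above control, while the direction was the same.

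CSF1, the ligand of CSF1R, was not detected in resistant cells. Its brightest probe read 100.6, 100.4 and 103.3 on resistant arrays, 123.9, 119.4 and 100.3 on control arrays, 121.1, 129.8 and 105.3 at 25 nM, and 118.5, 112.3 and 108.6 at 71.25 nM. It was detected on 0 of 3 resistant, 2 of 3 control, 2 of 3 25 nM and 1 of 3 71.25 nM arrays, and its other 2 probes on no array. Measured against the lowest detected signal, control cells were at least 1.06-fold above resistant cells, which is too small a bound to order the groups, and the log2 differences from control of 0.11 ± 0.18 SE at 25 nM and 0.02 ± 0.18 SE at 71.25 nM lay within their errors.

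LYZ, which encodes lysozyme, was detected on every array by 1 of its 2 probes and showed no separation of groups. That probe read 133.4, 131.5 and 137.5 on resistant arrays, 121.3, 134.0 and 146.8 on control arrays, 149.3, 137.1 and 137.4 at 25 nM, and 163.6, 134.8 and 137.9 at 71.25 nM. All 4 groups overlapped. Differences from control were 0.31 ± 0.24 SE in resistant cells, 0.18 ± 0.24 SE at 25 nM and 0.33 ± 0.24 SE at 71.25 nM, and the control arrays were the most scattered of the 4 groups (SD 0.57 in log2).

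CD14, a co-receptor for bacterial lipopolysaccharide on monocytes, read 112.7, 128.3 and 121.8 on resistant arrays, 123.6, 112.3 and 113.4 on control arrays, 120.7, 125.3 and 109.7 at 25 nM, and 114.8, 114.2 and 121.2 at 71.25 nM on its brighter probe. These deposited signals overlapped between all groups, and the other probe was detected on no array. After normalization the resistant cells stood 0.44 ± 0.15 SE above control without overlap, against 0.02 ± 0.15 SE at 25 nM and 0.06 ± 0.15 SE at 71.25 nM. Without background correction the resistant difference was 0.15.

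FCGR3A, the Fc receptor CD16a of natural killer cells and some monocytes, read 105.6, 107.2 and 110.3 on resistant arrays, 120.3, 132.4 and 114.8 on control arrays, 112.9, 132.3 and 112.0 at 25 nM, and 111.7, 110.8 and 108.1 at 71.25 nM. The control arrays lay above the resistant and the 71.25 nM arrays. The normalized differences from control were -0.32 ± 0.15 SE in resistant cells, -0.18 ± 0.15 SE at 25 nM and -0.42 ± 0.15 SE at 71.25 nM. The last of these was -0.13 without background correction. The other FCGR3A probe, ILMN_2112580, was detected on no array. It stood at -0.18, 0.14 and -0.05 in resistant, 25 nM and 71.25 nM cells and overlapped with control each time. FCGR3B is a near-identical copy, so which gene a probe reads is uncertain. A probe named for FCGR3B was detected on all 12 arrays, with 167.4 to 183.8 on resistant arrays, 174.7 to 211.0 on control arrays, 192.9 to 204.2 at 25 nM and 180.3 to 238.3 at 71.25 nM, and its difference from control in resistant cells was 0.00.

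The 3 remaining T lineage members act next to the T cell receptor. LAT, the adaptor that gathers signalling proteins at the membrane, read 112.0, 118.0 and 132.5 on resistant arrays, 134.2, 123.9 and 107.9 on control arrays, 136.9, 133.7 and 120.3 at 25 nM, and 124.6, 152.1 and 131.3 at 71.25 nM on the brightest of its 4 probes. All groups overlapped on these signals. Its differences from control were 0.26 ± 0.18 SE in resistant cells, 0.28 ± 0.18 SE at 25 nM and 0.51 ± 0.18 SE at 71.25 nM, and the last was 0.18 without background correction. On its other kept probe, ILMN_1691539, they were 0.24 ± 0.13 SE, 0.19 ± 0.13 SE and 0.20 ± 0.13 SE, and none was called. At 71.25 nM ILMN_1750188, detected on 2 of 12 arrays, stood at -0.12, and ILMN_2281320, detected on no array, at 0.16.

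CD2, an adhesion receptor of T and natural killer cells, was detected on all 3 arrays at 71.25 nM (116.7, 116.9 and 112.5), on none of the resistant arrays (103.3, 97.2 and 106.8), on none of the control arrays (113.4, 110.5 and 107.4) and on 1 array at 25 nM (110.3, 119.8 and 99.5). The bound on 71.25 nM over control was at least 1.11-fold. LCK, the kinase that starts T cell receptor signalling, was detected on 2 resistant arrays (108.5, 104.3 and 111.7), on no control array (110.7, 112.1 and 99.1), on 1 array at 25 nM (127.0, 115.2 and 107.5) and on none at 71.25 nM (107.0, 98.8 and 107.4). At least 1.04-fold is the bound on resistant over control cells. Of the other LCK probes ILMN_2279844 was detected on 2 of 12 arrays, and ILMN_2277426 and ILMN_2377109 on none. In resistant cells these stood at -0.19, 0.01 and -0.05 against control. Neither CD2 nor LCK can be ordered between groups at this signal.

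**Figure D2:**
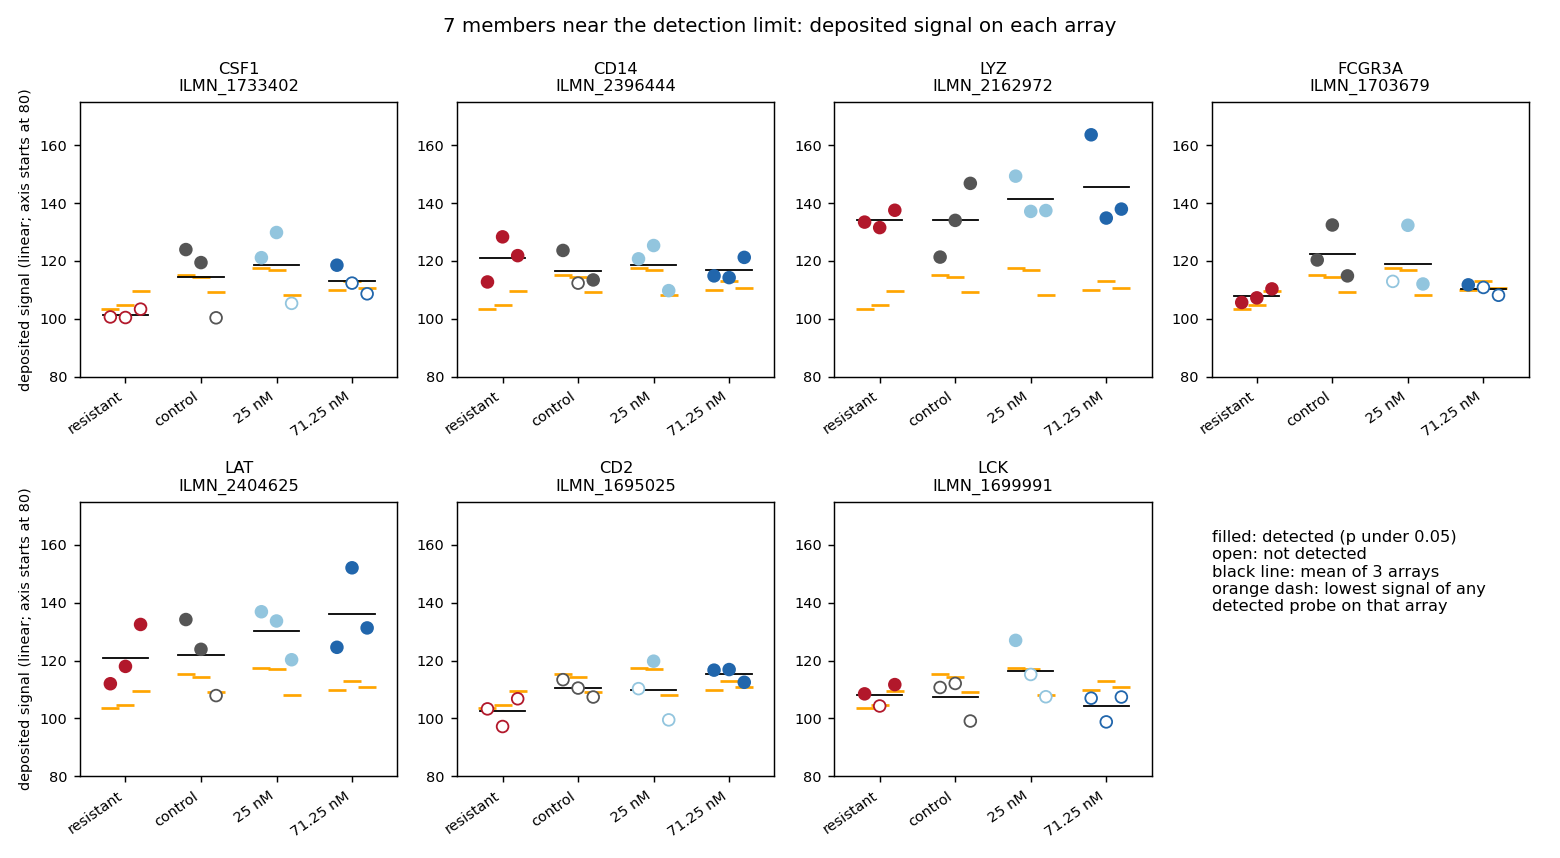
Deposited signal on each array for the brightest probe of 7 members, by group, on an axis that does not start at 0. Filled points were detected and open points were not, black lines are means of 3 arrays and orange dashes are the lowest detected signal on each array (103.5 to 117.5). Only LYZ stands above the dashes on every array.

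The members' calls are given beside those of all 14953 genes tested, and nothing is read from them, since the same values chose the members. A call is an adjusted p under 0.05 in limma's model over all 12 arrays, and groups that do not overlap are counted on normalized log2 signal. In resistant cells against control 4 of the 10 were called, all higher (CD68, CSF1R, GATA3 and CD14), where 47.1% of all genes were called (23% higher, 24.1% lower), and 6 did not overlap, against 53.8% of all genes. At 25 nM against control 1 was called (CD68, higher), against 27% of all genes (13.3% higher, 13.7% lower), and 2 did not overlap, against 42% of all genes. At 71.25 nM against control 3 were called (CD68 and LAT higher, FCGR3A lower), against 39% of all genes (19.4% higher, 19.6% lower), and 3 did not overlap, against 48.1% of all genes. Between 71.25 nM and 25 nM limma called 0 of 10 members, 2 had an unadjusted p under 0.05 and 1 did not overlap, where 5.86% of all genes were called (2.98% higher, 2.88% lower) and 29.2% did not overlap. In resistant cells against 71.25 nM 3 members were called, all higher (CD68, CSF1R and GATA3), where 21.5% of all genes were called (11.3% higher, 10.3% lower), and 6 did not overlap, against 37.9% of all genes. These comparisons share arrays and are not independent of each other. The calls of CD14, LAT and FCGR3A were each lost when single arrays were left out, and 1 member was called at 71.25 nM without control array 2, 71.25 nM array 8 or 71.25 nM array 9. The calls of CD68, CSF1R and GATA3 in resistant cells were kept in all 24 alternative analyses.

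**Figure D3:**
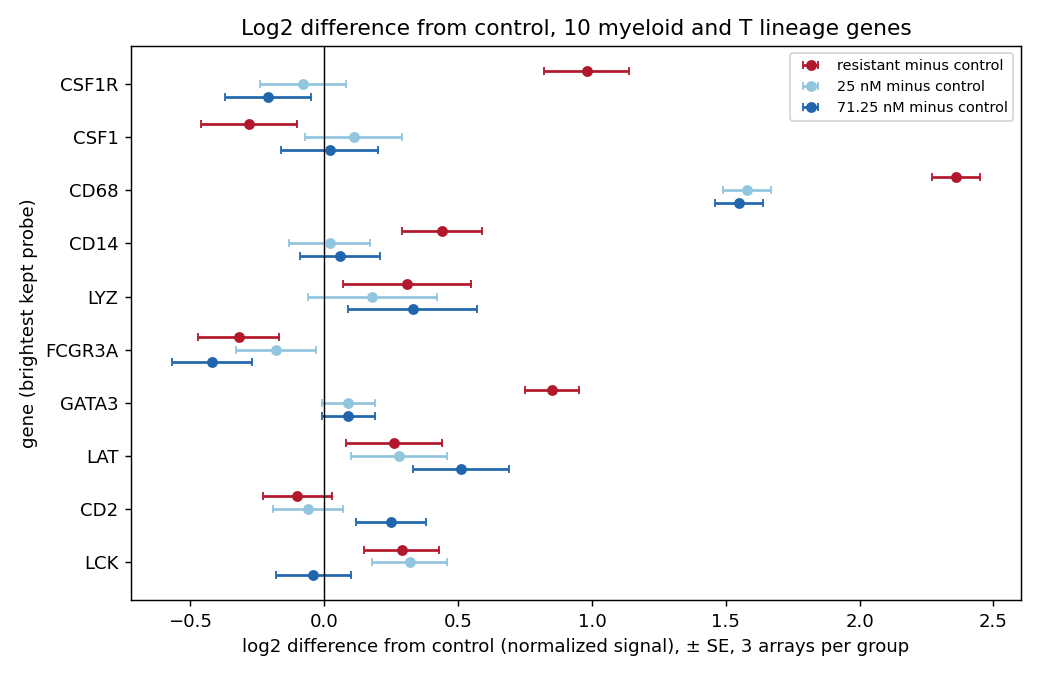
Log2 difference from control of normalized signal for the brightest kept probe of each of the 10 genes, as points with bars of ± 1 SE, for resistant cells, 25 nM and 71.25 nM (3 arrays per group). CD68 lies at 2.36, 1.58 and 1.55 in that order, CSF1R and GATA3 lie at 0.98 and 0.85 in resistant cells, and the remaining points lie between -0.42 and 0.51.

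By Pearson correlation of log2 values over the 12 arrays, the genes most like CD68 among 14943 others were FERMT2, an integrin activator (r = 0.994), and CYB5R1 (r = 0.993). Most like GATA3 were ARHGDIB (r = 0.986) and FAM43A (r = 0.985), and most like CSF1R were XPR1, a phosphate exporter (r = 0.976), and MIR1974 (r = 0.968). For CD2 these were C18orf21 (0.947) and SPATC1 (0.872), and for CSF1 GTF2H3 (0.911) and SNORA9 (0.908). For the other members the values lay between 0.868 and 0.898: FLJ45422 and NEDD4 for CD14 (0.898 and 0.889), LOC255275 and ST3GAL4 for LYZ (0.895 and 0.889), SNORA66 and IL18R1 for FCGR3A (0.895 and 0.888), RSPRY1 and SNORA68 for LAT (0.874 and 0.871) and TYRO3 and POMZP3 for LCK (0.875 and 0.868). The points share their arrays and groups and each value is the highest of many, so they describe likeness on these arrays only.

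The gene lists here and below were chosen with earlier results of these data known, so their counts and p-values are descriptions and no test of the lists. Genes around CSF1R were looked at as a list of 24 receptors, ligands, adaptors and factors. SPI1, CEBPA and IL34, the second ligand of CSF1R, were detected on no array, and 14 of the 24 could be tested. Of these 6 rose and 2 fell in resistant cells (23% and 24.1% of all genes), 6 rose and 4 fell at 25 nM (13.3% and 13.7%), and 5 rose and 4 fell at 71.25 nM (19.4% and 19.6%). The list medians were 0.03, 0.19 and 0.21, where those of all genes were -0.02, -0.002 and -0.006. Under housekeeping scaling 5 rose and 1 fell, 6 rose and 3 fell, and 7 rose and 2 fell, with medians of 0.20, 0.31 and 0.43. CSF2, which encodes the growth factor GM-CSF and not a ligand of CSF1R, led in resistant cells with 2.23 ± 0.11 SE (limma adjusted p = 3.34e-09). The CSF2 difference was 1.64 ± 0.11 SE at 25 nM (adjusted p = 3.97e-07) and 1.14 ± 0.11 SE at 71.25 nM (adjusted p = 3.55e-06). Its signal was 6151.0 to 8030.6 in resistant cells, 1931.9 to 2109.0 in control cells, 4681.9 to 6395.1 at 25 nM and 3674.9 to 3990.7 at 71.25 nM. No resistant, 25 nM or 71.25 nM array was as low as a control array. CEBPB, a myeloid transcription factor also induced by stress, rose by 1.89 ± 0.11 SE in resistant cells, 1.35 ± 0.11 SE at 25 nM and 1.95 ± 0.11 SE at 71.25 nM.

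The partners of CD14 in lipopolysaccharide sensing comprised 14 genes, of which TLR4, TLR2, LBP, CD180 and LY86 were detected on no array. Of the 9 tested, 6 rose and 1 fell in resistant cells (23% and 24.1% of all genes). At 25 nM 6 rose and 0 fell (13.3% and 13.7%), and at 71.25 nM 6 rose and 2 fell (19.4% and 19.6%). The list medians were 0.91, 0.44 and 0.77. The rises numbered 6 to 7 and the medians stayed above 0 under median, housekeeping and cyclic loess scaling. These settings use the same arrays and a list chosen with earlier results known, so they add no support. LY96, the co-receptor MD-2 of TLR4, read 315.0 to 355.6 in resistant cells, 120.7 to 135.4 in control cells, 179.8 to 206.1 at 25 nM and 234.4 to 242.4 at 71.25 nM, so that no groups overlapped. It rose by 2.82 ± 0.17 SE in resistant cells (adjusted p = 2.25e-08), by 1.29 ± 0.17 SE at 25 nM (adjusted p = 0.000121) and by 1.86 ± 0.17 SE at 71.25 nM (adjusted p = 2.22e-06). The signalling kinase gene IRAK2 rose by 2.09 ± 0.17 SE, 0.72 ± 0.17 SE and 0.80 ± 0.17 SE in resistant, 25 nM and 71.25 nM cells. The adaptor gene TICAM1 rose by 1.22 ± 0.16 SE, 1.01 ± 0.16 SE and 1.14 ± 0.16 SE, and the difference on its other probe was smaller (0.42, 0.51 and 0.32). IRAK1 was lower by 0.58 ± 0.11 SE in resistant cells.

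Of the 31 monocyte and macrophage markers 8 could be tested. In resistant cells 3 rose (among them ITGAX by 0.95 ± 0.18 SE and CTSS by 0.65 ± 0.12 SE) and 2 fell (AIF1 and NCF4, at -0.67 ± 0.14 SE and -0.36 ± 0.11 SE). At 25 nM AIF1 fell and no marker rose, and at 71.25 nM 3 fell (NCF4 by 0.81 ± 0.11 SE, AIF1 by 0.71 ± 0.14 SE, and CTSS, which was at least 1.11-fold lower). Of all genes 23% rose and 24.1% fell in resistant cells, 13.3% and 13.7% at 25 nM, and 19.4% and 19.6% at 71.25 nM. Under housekeeping scaling 1 marker rose and 0 fell at 25 nM, and 1 rose and 2 fell at 71.25 nM. NCF4 encodes a subunit of the phagocyte oxidase, ITGAX the integrin CD11c, CTSS cathepsin S and AIF1 the macrophage protein IBA1. The list medians of -0.01 in resistant cells and -0.20 at 71.25 nM became 0.21 and 0.01 there.

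Around CD2, LCK and LAT, 16 of 24 genes could be tested, and ZAP70, LCP2 and the CD2 ligand CD48 were detected on no array. In resistant cells 4 rose and 6 fell (23% and 24.1% of all genes). At 25 nM 3 rose and 6 fell (13.3% and 13.7%), and at 71.25 nM 3 rose and 6 fell (19.4% and 19.6%). The list medians were -0.20, -0.18 and -0.23, which were -0.16, -0.06 and -0.08 under housekeeping scaling. CD58, the main ligand of CD2, fell by 0.85 ± 0.10 SE, 0.63 ± 0.10 SE and 0.90 ± 0.10 SE on the log2 scale in resistant, 25 nM and 71.25 nM cells (adjusted p = 9.7e-06, 0.000458 and 1.13e-05). PTPN22, a phosphatase that restrains LCK, stood at -0.95 ± 0.13 SE, -0.87 ± 0.13 SE and -1.13 ± 0.13 SE. FYN, a kinase related to LCK, rose by 1.25 ± 0.14 SE, 0.53 ± 0.14 SE and 1.10 ± 0.14 SE, while over its 3 probes the differences were as low as 0.46, 0.18 and 0.54. Of the 21 T cell markers TBX21 alone could be tested, at -0.45 ± 0.19 SE in resistant cells (adjusted p = 0.0726).

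Genes of the type 2 programme around GATA3 were measured for 15 of 16 listed symbols, 12 of them testable. In resistant cells 5 rose and 3 fell (23% and 24.1% of all genes). At 25 nM 3 rose and 4 fell (13.3% and 13.7%), and at 71.25 nM 3 rose and 5 fell (19.4% and 19.6%). The list medians were -0.09, -0.18 and -0.19. Under housekeeping scaling those of resistant cells and 71.25 nM turned to 0.01. IL4 was detected on no array. IL13, a growth factor of Hodgkin cells, read 202.4 to 205.7 in resistant cells, 106.1 to 117.3 in control cells, 125.3 to 150.6 at 25 nM and 148.2 to 154.5 at 71.25 nM. It rose by 2.32 ± 0.11 SE, 0.83 ± 0.11 SE and 1.24 ± 0.11 SE in resistant, 25 nM and 71.25 nM cells (adjusted p = 1.67e-09, 9.22e-05 and 1.22e-06). IL1RL1, the interleukin-33 receptor ST2, rose by 2.45 ± 0.14 SE, 1.28 ± 0.14 SE and 2.11 ± 0.14 SE, and by less on another probe (1.70 in resistant cells and 1.26 at 71.25 nM). IL9 rose by 5.15 ± 0.12 SE in resistant cells, the largest difference of the list. Its signal was 1553.2 to 1871.3 in resistant cells and 136.6 to 140.4 in control cells. At 25 nM IL9 read 427.7 to 656.0 and at 71.25 nM 806.6 to 923.4, so both doses also lay above control. IL5 fell by 0.71 ± 0.19 SE at 25 nM and 0.94 ± 0.19 SE at 71.25 nM, and stood at -0.24 ± 0.19 SE in resistant cells (adjusted p = 0.339).

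Among 18 natural killer and cytotoxic markers 4 could be tested. GZMB, the granule protease granzyme B, was detected on all 3 resistant arrays (130.9 to 149.1) and on none of the control arrays (90.9 to 96.1). The bound on resistant over control cells was at least 2.24-fold. It was also detected on all 3 arrays at 71.25 nM (123.5 to 128.9), at least 1.48-fold above control, and on none at 25 nM (94.7 to 112.9). NKG7, a granule membrane protein, was detected on the 3 resistant arrays (117.7 to 121.9) and on no other array, at least 1.47-fold above control. Both genes passed the detection filter only through the groups where they were high, so no p-value is given for either.

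**Figure D4:**
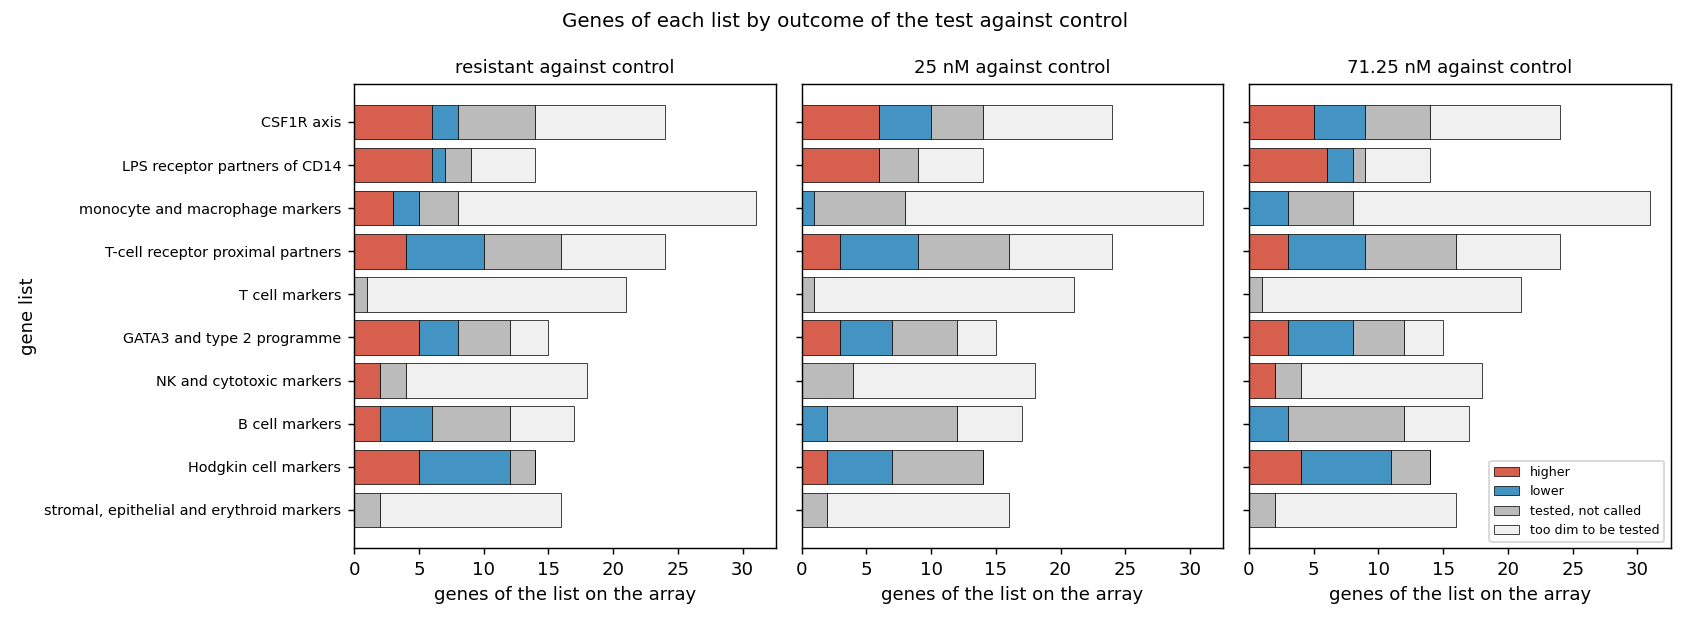
For each gene list, the number of its genes on the array that were higher, lower, tested but not called, or too dim to be tested, in resistant, 25 nM and 71.25 nM cells against control (limma adjusted p under 0.05). Of the 21 T cell markers 1 could be tested and of the 31 monocyte and macrophage markers 8. In each comparison 6 of 9 tested partners of CD14 were higher. The lists were chosen with earlier results of these data known, so such counts are no test. Of all genes 23%, 13.3% and 19.4% were higher in resistant, 25 nM and 71.25 nM cells.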

How the data were processed

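RNA of 12 samples, 3 in each of 4 groups, was measured on Illumina HT-12 arrays. Per the file headers, the deposited intensity values are signals per probe with a detection p-value each; they are neither background subtracted nor normalized, and columns carry a group and an array number but no replicate number. The authors' processed intensity values, deposited in a second table, had, per the series' design text, a housekeeping gene correction followed by quantile normalization. They are linear and uncentred (column medians 103.9 to 104.8), and which housekeeping genes were used stays unknown.

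Signals were corrected by limma's normexp model (offset 16, negative controls inferred from detection p-values), then brought to equal quantiles between arrays on the log2 scale (with limma 3.58.1 in R 4.3.3; figures with matplotlib 3.10.9). Probes detected at p under 0.05 on at least 3 arrays (20414) were fitted with 1 mean per group over all 12 arrays, with moderated two-sided tests and Benjamini-Hochberg adjustment over all kept probes. The fit was tested on simulated data. The brightest kept probe stood for its gene (14953 genes). Symbols are as deposited: 3270 probes had none and 54 a date. Where no array of a group detected a gene, a bound is given (at least N-fold) from the other group's mean and, on each array of the undetected group, the larger of the gene's signal and the dimmest signal called detected there. The members and the lists of 195 further symbols were chosen with earlier results of these data known. Named genes were all members, up to 4 called genes of largest difference per list and comparison, the 2 genes most like each member, and fixed defining markers; genes detected on no array, TBX21, LILRB1, FCGR3B and IL5 in resistant cells were named after their values were seen. Some genes that this rule names are not reported here. Precision is limited by the number of arrays; standard errors of log2 differences had a median of 0.14. An exact permutation test of 3 against 3 arrays cannot go below 0.1.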

Additional observations from a re-analysis of the deposited data

How the results depend on the processing

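The calls of CD68 in the 3 comparisons with control and in resistant cells against 71.25 nM, and those of CSF1R and GATA3 in resistant cells against control and against 71.25 nM, were kept under all 24 alternatives. These alternatives use the arrays on which the members were chosen. They describe how a call depends on the processing and are no support for the differences. The CD68 difference from control ran from 2.16 to 2.45 in resistant cells, from 1.40 to 1.64 for 25 nM and from 1.27 to 1.64 for 71.25 nM, and in resistant cells that of GATA3 ran from 0.66 to 0.94 and that of CSF1R from 0.42 to 1.11. CD14 in resistant cells was called in 17 of 24, LAT at 71.25 nM in 15 and FCGR3A at 71.25 nM in 9. No called member changed sign. At 71.25 nM against control 1 member was called without background correction, without the filter, and on the authors' values with or without the replicate block, and 1 to 3 with an array left out. At 25 nM housekeeping scaling called 2. Between the doses 876 genes were called, against 1582 with an offset of 50, 1772 without background correction, 1775 on the authors' values, 1623 on these with the replicate block, 1527 with a trend and robust prior, and 371 to 953 with an array left out (449, 470, 371, 447 and 436 without arrays 4, 5, 6, 7 and 9). The cause was not tested. Housekeeping scaling moved the median of all genes to 0.11 for 25 nM and 0.19 for 71.25 nM against control, and to -0.12 for resistant cells against 71.25 nM, and the share of rises among called genes to 67.7%, 72.1% and 24.6% there and 74.9% between the doses, against 49.4%, 49.7%, 52.4% and 50.8%. Only the authors' values carry replicate numbers; same-numbered samples had correlations of deviations from -0.29 to 0.16, over 0.1 in 2 of 18 pairs, so they share only a number. Signals near the lowest detected one limit CSF1, CD14, FCGR3A, LAT, CD2 and LCK.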

Other observations

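The markers of the line's own lineage were counted beside the shares of all genes. Of 14 Hodgkin cell markers, all of them testable, 5 rose and 7 fell in resistant cells against control (23% and 24.1% of all genes). At 25 nM 2 rose and 5 fell (13.3% and 13.7%), and at 71.25 nM 4 rose and 7 fell (19.4% and 19.6%). Median log2 differences of these markers were -0.25, -0.04 and -0.29. Their summed signal was 32380 to 34121 on resistant arrays, 45573 to 56654 on control arrays, 39306 to 46496 at 25 nM and 26971 to 31141 at 71.25 nM, and CCL17 signals spanned 6397.4 to 17938.7 over the 12 arrays. Of 17 B cell markers 12 could be tested, of which 2 rose and 4 fell in resistant cells (23% and 24.1% of all genes). At 25 nM 0 rose and 2 fell (13.3% and 13.7%), and at 71.25 nM 0 rose and 3 fell (19.4% and 19.6%). The 17 B cell markers summed to 2190 to 2264 on resistant arrays, 2647 to 3216 on control arrays, 2423 to 2815 at 25 nM and 2200 to 2354 at 71.25 nM. The part of these differences in the members' values was not tested. Of 16 stromal, epithelial and erythroid markers 2 could be tested, with a median difference of -0.07 in resistant cells, 0.01 at 25 nM and 0.13 at 71.25 nM. The 4 testable natural killer and cytotoxic markers had medians of 0.48, 0.17 and 0.36 in resistant, 25 nM and 71.25 nM cells. GZMB and NKG7 among them passed the detection filter only through groups where they were high, so these medians are no test.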
